A study of Mus musculus with 12 samples.

Results

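The genes described here were 53 genes of mitosis and of the G2 to M transition. They were chosen by name, with earlier results of these data known, from a table of 55397 mouse genes. They were measured in primary cultures of *Myt1l* (+/−) and (+/+) pups. All 53 passed the low-count filter of edgeR, which left 18264 genes for testing. The genes were sorted into 10 roles: CDK1 and its cyclins, other mitotic kinases, the chromosomal passenger complex, the spindle checkpoint with the anaphase-promoting complex, kinesins, spindle-associated proteins, kinetochore and centromere proteins, cytokinesis, chromosome structure, and transcription factors.

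Entry into mitosis is driven by CDK1 bound to cyclin B, and most genes of the mitotic machinery are transcribed in a burst late in the cell cycle by B-MYB and FOXM1, which join the MuvB complex at a promoter element called the cell cycle genes homology region (CHR). In resting cells the same element is held silent by the DREAM complex. Postmitotic neurons turn most of these genes down, though not every one of them. The mRNA of such genes is commonly used as a mark of dividing cells, which in brain tissue are progenitors, glia and microglia. Ara-C, a nucleoside analogue that kills cells during DNA synthesis, is added to neuronal cultures to limit such cells.

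Cultures came from 3 heterozygous *Myt1l* (+/−) and 3 wild-type (+/+) animals, with 2 libraries per animal whose counts were summed, because neither the labels nor the methods say how the libraries of an animal differ. The mutant allele carried a small germline frameshift deletion in exon 6, made by genome editing in zygotes, and its transcript is described as escaping nonsense-mediated decay, so *Myt1l* counts (4039, 6032 and 6711 in (+/−) animals and 6196, 6607 and 4657 in (+/+) animals) cannot check the genotype. The labels give cortex of male C57BL/6J pups at P0, grown with 5% FBS and with 2 µM Ara-C added 3 days after plating, for both genotypes. The paper calls the sequenced cells primary mouse neurons at DIV11. Its methods name hippocampus or cortex as the source of primary cultures and say that founders were bred with C57BL/6N mice. The animals are named by the numbers of their labels: (+/−) animals 505, 506 and 508, and (+/+) animals 510, 511 and 513.

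Totals were 40642699 to 43745258 counts in (+/−) animals and 43129302 to 52833161 counts in (+/+) animals, and 3.40% to 4.25% of them belonged to mitochondrial genes. Animal 511 had 18805 *Xist* counts where the other animals had 5 to 10, although its label says male. Neuronal and astrocytic markers were present in every animal. Among markers of cortical intermediate progenitors, *Neurog2* and *Insm1* had 30 to 250 counts in each animal and *Eomes* and *Neurog1* had 5 or fewer. Nothing states that the pups came from separate litters, so p-values measure the spread between these 6 animals only.

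More than 4 in 5 of these 53 mitosis and G2/M genes had a higher mean level in (+/−) than in (+/+) cultures. The differences were moderate and did not pass correction for multiple testing. A further list of mitosis and G2/M genes, given below, did not lean this way. There 25 of 54 tested genes were positive and 29 negative, with a median log2 fold change of −0.03. The log2 fold change was positive in 44 of the 53 genes (83.0%, against 50.4% of all tested genes). Its median was 0.40, against 0.0031 over all tested genes. Because the 53 genes were chosen with earlier results known, this and the shares below describe them and do not test an excess. The genes with the largest differences were the spindle motor gene *Kif11* (log2 fold change 1.09), the kinase gene *Melk* (0.96), the transcription factor gene *Mybl2* (0.93), the cyclin gene *Ccnb2* (0.91) and the kinetochore gene *Cenpf* (0.88). The chromosomal passenger complex and the ATPases of condensin, *Smc2* and *Smc4*, differed little, with log2 fold changes of −0.20 to 0.09.

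By the quasi-likelihood test of edgeR, 0 members were higher and 0 lower at the adjusted threshold of 0.1, where 0% of all genes were called, and the smallest adjusted p was 0.17. At an unadjusted p under 0.05 from edgeR, 22 members (41.5%) were higher, against 13.2% of all tested genes, and 0 were lower, against 9.11% of all tested genes. In 20 members (37.7%) every (+/−) animal lay above every (+/+) animal, against 15.5% of all tested genes. In 0 members every (+/−) animal lay below every (+/+) animal, against 13.5% of all tested genes. DESeq2 on the same animals called 14 members higher at an adjusted p under 0.1, against 7.54% of all tested genes, and 0 lower, against 4.3% of all tested genes, whereas limma voom called 0. DESeq2 with genetic sex as a covariate, the model of the study's methods, called 0 members higher, against 1.23% of all tested genes (224 genes), so each of the 14 calls was lost under it. Only animal 511 differed in genetic sex, and this covariate therefore takes that animal out of the comparison. The 20 separated members had p = 0.1 in an exact two-sided permutation test over animals, the smallest that 3 against 3 allow. The 14 called by DESeq2 without that covariate were *Ccna2*, *Ccnb1*, *Ccnb2*, *Cdk1*, *Melk*, *Kif11*, *Hmmr*, *Aspm*, *Cenpf*, *Nuf2*, *Mki67*, *Top2a*, *Foxm1* and *Mybl2*.

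**Figure D1:**
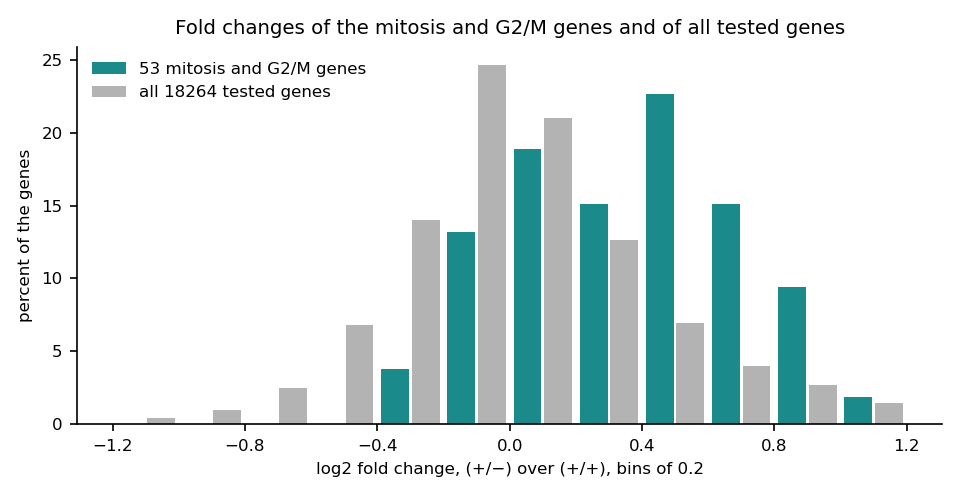
Percent of the 53 mitosis and G2/M genes (teal) and of all 18264 tested genes (grey) in bins of the log2 fold change, (+/−) over (+/+). Above 0.4 lie 49.1% of the members and 16.8% of all genes, below −0.4 lie 0 members and 11.0% of all genes, and 377 genes outside the plotted range are not drawn.

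The summed level of the 53 genes was 358, 276 and 295 CPM (counts scaled to the library size, which was corrected by TMM) in (+/−) animals 505, 506 and 508. It was 246, 227 and 267 CPM in (+/+) animals 510, 511 and 513. The genotypes thus did not overlap in this sum, but animals 506 and 513 lay closer to each other than animal 505 lay to the other (+/−) animals. Animal 505 was the highest of the 6 animals in 39 members, and animal 513 the highest (+/+) animal in 33. Without animal 505 the median log2 fold change of the members was 0.22 and 38 of the 53 were positive. Then 12 members were higher at an unadjusted p under 0.05 from edgeR, against 8.32% of all tested genes. That count was 13 without animal 510 (against 6.70%) and 9 without animal 511 (against 7.02%). Without animal 513, edgeR called 14 members higher at an adjusted p under 0.1, against 12.3% of all genes. In a bulk sample a larger number of cells of a type and more RNA per cell cannot be told apart.

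These genes were weakly expressed. Their mean level ran from 0.740 to 25.6 CPM with a median of 3.39 CPM, against a median of 17.3 CPM over all tested genes, and 36 of them were under 5 CPM. The lowest count of a member in an animal was 21. Per length of exon the range was 0.104 to 4.91 RPKM, with *Smc4* at the top and *Kif15* at the bottom.

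Promoter sequences are shown for 4 members, because the CHR is the element shared by genes of this program and because these members differed in their fold changes. RefSeq start sites on GRCm38.p6 were at hand for 43 of the 53 members, in a window of 250 bases before to 50 bases after the start. The letters TTTGAA, the common form of the CHR, were found on either strand in 31 of the 43 members (72.1%), against 20.2% of the 27025 genes of the table and 17.9% of its 32851 promoters. The form TTCGAA was found in 3 members (6.98%, against 1.80% of genes), and CCAAT, the box bound by NF-Y, in 30 (69.8%, against 41.1% of genes). A CHR starting within 30 bases of the start site was found in 27 members (62.8%, against 3.95% of genes). AAAGTT, the motif that MYT1L binds, was found in 5 members (11.6%, against 15.9% of genes). The stretches below run from 130 bases before to 30 bases after the start site on the strand of the gene, and capitals mark TTTGAA or its complement TTCAAA and CCAAT or its complement ATTGG. They lie at chr9:70421525-70421684 (minus strand) for *Ccnb2*, chr10:69352883-69353042 (minus) for *Cdk1*, chr19:37376252-37376411 (plus) for *Kif11* and chr15:99651627-99651786 (minus) for *Racgap1*.
Ccnb2: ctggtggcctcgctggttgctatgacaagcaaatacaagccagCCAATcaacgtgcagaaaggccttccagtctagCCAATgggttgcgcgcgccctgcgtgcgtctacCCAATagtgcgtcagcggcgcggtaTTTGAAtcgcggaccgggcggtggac
Cdk1: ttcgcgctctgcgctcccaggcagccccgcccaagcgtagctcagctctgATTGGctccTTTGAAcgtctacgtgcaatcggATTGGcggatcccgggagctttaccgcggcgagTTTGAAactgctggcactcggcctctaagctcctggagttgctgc
Kif11: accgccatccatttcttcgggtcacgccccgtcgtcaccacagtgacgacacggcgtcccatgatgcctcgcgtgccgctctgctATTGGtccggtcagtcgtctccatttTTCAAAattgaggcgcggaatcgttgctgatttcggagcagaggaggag
Racgap1: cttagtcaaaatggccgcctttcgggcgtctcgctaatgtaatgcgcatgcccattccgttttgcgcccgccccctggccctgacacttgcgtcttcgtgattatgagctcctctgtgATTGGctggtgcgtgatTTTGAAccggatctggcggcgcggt
All 4 hold a CHR with a CCAAT box upstream of it, although their log2 fold changes ran from −0.14 (*Racgap1*) to 1.09 (*Kif11*). Over the members, the 32 with a CHR of either form had a median log2 fold change of 0.35 and 14 of them an unadjusted p under 0.05. The 11 without had a median of 0.40, and 4 of them an unadjusted p under 0.05.

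Among CDK1 and the proteins that switch it on, all 5 genes had positive log2 fold changes (0.45 to 0.91, median 0.58), and 4 had an unadjusted p under 0.05. *Cdk1*, the kinase that starts mitosis, was at 8.90, 6.45 and 5.68 CPM in (+/−) animals and at 5.09, 4.47 and 4.52 CPM in (+/+) animals. The difference was 0.58 ± 0.19 on the log2 scale (± standard error, adjusted p = 0.18 by the quasi-likelihood test of edgeR), and 0.37 without animal 505. *Ccnb1*, the main cyclin B, was at 5.95, 4.76 and 4.20 CPM in (+/−) animals and at 2.92, 2.43 and 3.63 CPM in (+/+) animals (log2 fold change 0.73, standard error 0.21, adjusted p = 0.17 from edgeR). *Ccnb2*, whose protein sits at the Golgi, was at 2.49, 1.81 and 1.65 CPM in (+/−) animals and at 1.08, 0.801 and 1.29 CPM in (+/+) animals (log2 fold change 0.91, standard error 0.26, adjusted p = 0.17 from edgeR). In these 3 genes no (+/−) animal reached down to a (+/+) animal, and animal 505 was the highest. *Ccna2*, cyclin A, also separated the genotypes, but *Exosc9* on the opposite strand overlaps it and had 7274 counts against its 919, and whether counting used strand is not stated. *Cdc25c*, the phosphatase that frees CDK1 from inhibition, overlapped between genotypes (log2 fold change 0.45).

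The transcription factors that drive this program had a median log2 fold change of 0.88. *Mybl2*, which encodes B-MYB, was at 2.56, 2.05 and 2.56 CPM in (+/−) animals and at 1.33, 1.18 and 1.24 CPM in (+/+) animals. The (+/+) animals lay close together and below all (+/−) animals (log2 fold change 0.93, standard error 0.19, adjusted p = 0.17 from edgeR, and 0.0058 from DESeq2). With any animal left out its log2 fold change stayed at 0.88 to 1.02. *Foxm1*, the forkhead factor that takes over from B-MYB late in G2, was at 4.34, 2.66 and 4.06 CPM in (+/−) animals and at 1.83, 1.60 and 2.86 CPM in (+/+) animals. Animals 506 and 513 overlapped (log2 fold change 0.82, standard error 0.28, adjusted p = 0.18 from edgeR), and reads of *Foxm1* may be shared with *Tex52* and a predicted gene on the same strand.

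**Figure D2:**
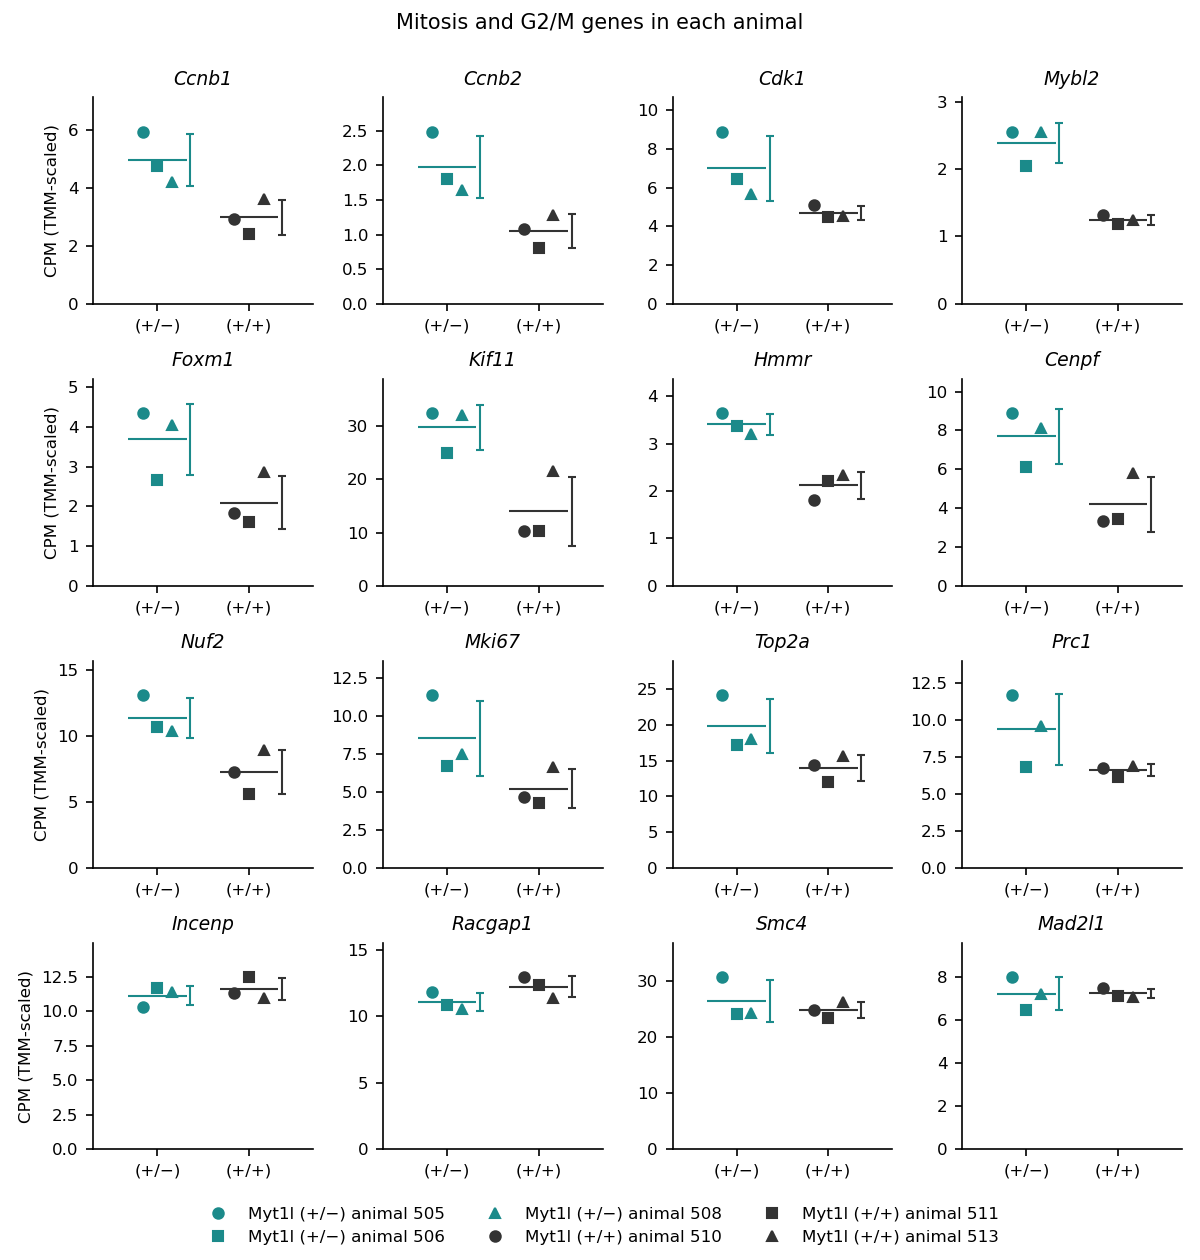
CPM (TMM-scaled) of 16 members in each animal, (+/−) in teal and (+/+) in black, with the mean as a horizontal line and the SD as a bar (n = 3 each). In *Mybl2*, *Hmmr* and *Nuf2* all (+/−) animals lie above all (+/+) animals, whereas *Incenp*, *Racgap1*, *Smc4* and *Mad2l1* overlap.

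Among the other mitotic kinases all 4 genes had positive log2 fold changes (0.25 to 0.96), and 2 had an unadjusted p under 0.05. *Melk*, a kinase used as a marker of cycling progenitors, was at 1.30, 1.18 and 1.03 CPM in (+/−) animals and at 0.423, 0.645 and 0.749 CPM in (+/+) animals (log2 fold change 0.96, standard error 0.27, adjusted p = 0.17 from edgeR). *Pbk*, a kinase active in mitotic cells, was at 3.86, 2.41 and 2.56 CPM in (+/−) animals and at 1.86, 1.29 and 2.20 CPM in (+/+) animals (log2 fold change 0.72, standard error 0.27, adjusted p = 0.19 from edgeR). *Plk1*, the polo kinase of centrosome maturation, was at 3.50, 2.61 and 2.38 CPM in (+/−) animals and at 2.61, 1.94 and 2.25 CPM in (+/+) animals, with overlap between genotypes (log2 fold change 0.32, adjusted p = 0.36 from edgeR). The kinases thus did not differ to the same degree, and *Plk1* was at 0.14 without animal 505.

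The chromosomal passenger complex, which corrects faulty attachments of chromosomes to the spindle, was the role that differed least. Its 4 genes had log2 fold changes of −0.20 to 0.06 with 3 negative, and 0 had an unadjusted p under 0.05. *Incenp*, the scaffold of the complex, was at 10.3, 11.7 and 11.4 CPM in (+/−) animals and at 11.3, 12.5 and 11.0 CPM in (+/+) animals. The ranges overlapped (log2 fold change −0.06 with a standard error of 0.11, adjusted p = 0.75 from edgeR). *Aurkb*, the kinase of the complex, was at 2.29, 1.57 and 1.28 CPM in (+/−) animals and at 1.98, 2.14 and 1.80 CPM in (+/+) animals (log2 fold change −0.20, standard error 0.25, adjusted p = 0.61 from edgeR). Animal 505 was the highest and animal 508 the lowest for *Aurkb*, so the (+/−) animals reached beyond the (+/+) animals on both sides. *Cdca8*, which encodes borealin, was at 3.13, 3.19 and 3.10 CPM in (+/−) animals and at 3.36, 3.47 and 2.76 CPM in (+/+) animals, with overlap (log2 fold change −0.03, standard error 0.16, adjusted p = 0.92 from edgeR). *Birc5*, which encodes survivin, had a log2 fold change of 0.06. *Cdca8* overlaps 9930104L06Rik on the opposite strand, which had 3244 counts against its 849.

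Genes of the spindle checkpoint and of the anaphase-promoting complex gave 5 positive log2 fold changes of 6 (median 0.29), with 1 gene at an unadjusted p under 0.05 and none in which the genotypes separated. *Cdc20*, the activator of the anaphase-promoting complex, was at 5.35, 4.10 and 4.79 CPM in (+/−) animals and at 4.28, 3.03 and 3.11 CPM in (+/+) animals (log2 fold change 0.45, standard error 0.19, adjusted p = 0.22 from edgeR). It overlaps *Elovl1* on the opposite strand, which had 5994 counts against its 1100. *Mad2l1*, the MAD2 protein of the checkpoint, was at 7.98, 6.47 and 7.18 CPM in (+/−) animals and at 7.47, 7.12 and 7.07 CPM in (+/+) animals. The (+/+) animals of *Mad2l1* lay inside the range of the (+/−) animals (log2 fold change −0.0025, standard error 0.13). The checkpoint kinases *Bub1*, *Bub1b* and *Ttk* had log2 fold changes of 0.53, 0.33 and 0.18, each with overlap, and without animal 505 these were 0.15, 0.06 and −0.07.

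The 10 kinesins, motors that move along microtubules, were split. *Kif11*, the tetrameric motor that pushes spindle poles apart, stood out with 32.4, 25.0 and 32.2 CPM in (+/−) animals and 10.3, 10.3 and 21.5 CPM in (+/+) animals. Animals 510 and 511 were alike and animal 513 lay between them and the (+/−) animals. *Kif11* thus had a log2 fold change of 1.09 with a standard error of 0.29 (adjusted p = 0.17 from edgeR, and 0.010 from DESeq2), and of 1.53 without animal 513. Per length *Kif11* was at 4.0 RPKM in (+/−) and 1.88 RPKM in (+/+) cultures, the highest level of a kinesin in either genotype. *Kif2c*, a depolymerase at centromeres, and *Kif23*, of the central spindle, separated the genotypes with log2 fold changes of 0.57 and 0.47. *Kif20a* had 0.67, but *Cdc23* on the opposite strand had 15629 counts against its 738. *Kif18a*, which shortens microtubules at kinetochores, was at 7.36, 5.89 and 7.79 CPM in (+/−) animals and at 8.34, 6.59 and 6.20 CPM in (+/+) animals (log2 fold change −0.0071, standard error 0.17), with *Mettl15* on the opposite strand. The remaining *Kif4*, *Kif15*, *Kif20b*, *Kif22* and *Cenpe* had log2 fold changes of 0.04 to 0.37, all with overlap between genotypes, and *Kif4* shares its locus with *Pdzd11* on the opposite strand.

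**Figure D3:**
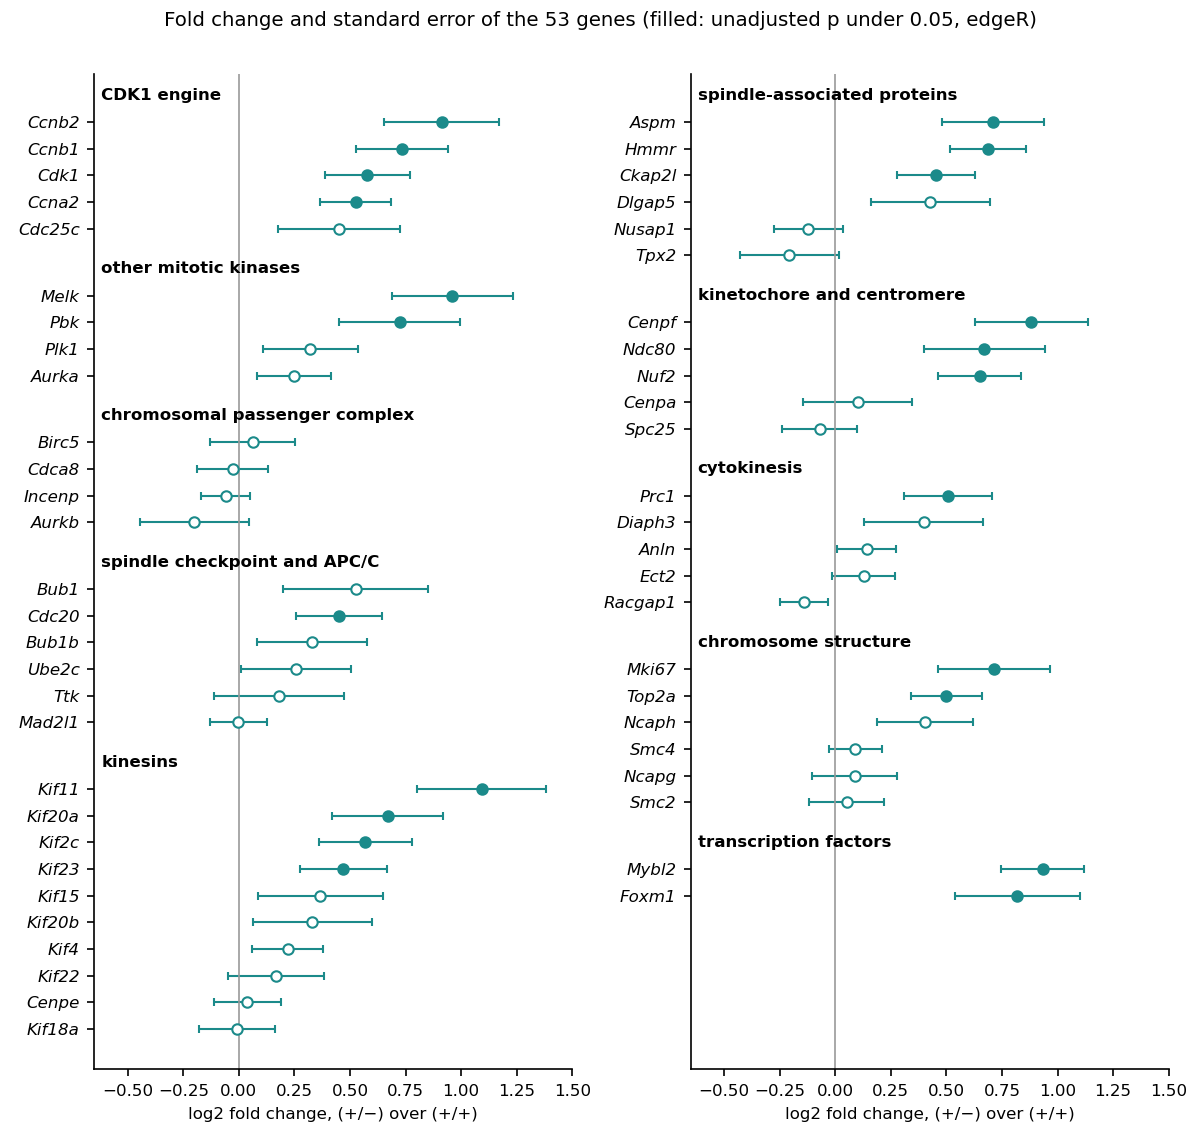
Log2 fold change, (+/−) over (+/+), of each of the 53 genes with its standard error as a bar (edgeR, n = 3 animals each), grouped by role, with filled points for an unadjusted p under 0.05. CDK1 and its cyclins (median 0.58) and the transcription factors (0.88) lie to the right of 0, and the chromosomal passenger complex lies around 0 (median −0.04).

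Spindle-associated proteins gave both directions. *Hmmr*, a spindle pole protein that also marks dividing cells, was at 3.64, 3.38 and 3.20 CPM in (+/−) animals and at 1.81, 2.20 and 2.34 CPM in (+/+) animals. The animals of a genotype lay close together and apart from the other genotype (log2 fold change 0.69, standard error 0.17, adjusted p = 0.17 from edgeR, and 0.021 from DESeq2). *Aspm*, a spindle pole protein whose loss causes microcephaly, had a log2 fold change of 0.71. *Ckap2l*, a microtubule binder of neural progenitors, was at 6.68, 4.73 and 5.56 CPM in (+/−) animals and at 4.11, 3.67 and 4.61 CPM in (+/+) animals, so that the lowest (+/−) animal was only just above the highest (+/+) animal (log2 fold change 0.45, standard error 0.18, adjusted p = 0.20 from edgeR). *Tpx2*, which activates Aurora A on the spindle, was at 11.0, 9.22 and 7.65 CPM in (+/−) animals and at 13.4, 11.1 and 7.66 CPM in (+/+) animals. These ranges overlapped, though animals 510 and 511 lay above every (+/−) animal (log2 fold change −0.21, standard error 0.22, adjusted p = 0.56 from edgeR). *Nusap1*, which overlaps *Oip5* on the opposite strand, had a log2 fold change of −0.12.

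At the kinetochore, 3 of 5 genes separated the genotypes and the role's median log2 fold change was 0.65. *Cenpf*, a large kinetochore protein made in G2, was at 8.88, 6.13 and 8.11 CPM in (+/−) animals and at 3.32, 3.43 and 5.83 CPM in (+/+) animals (log2 fold change 0.88, standard error 0.25, adjusted p = 0.17 from edgeR). *Nuf2*, of the NDC80 complex that grips microtubules, was at 13.1, 10.7 and 10.4 CPM in (+/−) animals and at 7.24, 5.63 and 8.92 CPM in (+/+) animals (log2 fold change 0.65, standard error 0.19, adjusted p = 0.17 from edgeR). Its partner *Ndc80* had a log2 fold change of 0.67, whereas *Spc25*, of the same complex, was at 7.54, 6.88 and 5.21 CPM in (+/−) animals and at 7.59, 6.61 and 6.41 CPM in (+/+) animals (log2 fold change −0.07, standard error 0.17, adjusted p = 0.80 from edgeR). The mRNAs of this complex also differed in level: per length of exon *Nuf2* was 12.9-fold above *Ndc80* over all animals. *Cenpa*, the centromeric histone, had a log2 fold change of 0.10 with overlap.

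Cytokinesis genes differed less, with a median log2 fold change of 0.14. *Prc1*, which bundles the central spindle, was at 11.7, 6.86 and 9.59 CPM in (+/−) animals and at 6.74, 6.14 and 6.93 CPM in (+/+) animals (log2 fold change 0.51, standard error 0.20, adjusted p = 0.20 from edgeR). Animal 506 lay among the (+/+) animals, and *Rccd1* on the opposite strand had 1972 counts against 2128 of *Prc1*. *Anln*, an actin-binding protein of the cleavage furrow, was at 16.1, 12.1 and 13.7 CPM in (+/−) animals and at 12.9, 11.8 and 13.4 CPM in (+/+) animals (log2 fold change 0.14, adjusted p = 0.51 from edgeR). *Racgap1*, of the centralspindlin complex, was at 11.8, 10.9 and 10.5 CPM in (+/−) animals and at 12.9, 12.3 and 11.4 CPM in (+/+) animals (log2 fold change −0.14, standard error 0.11, adjusted p = 0.43 from edgeR). Its negative sign stayed with any animal left out (−0.20 to −0.11), while its partner in centralspindlin, *Kif23*, had 0.47. *Diaph3*, a formin of the contractile ring, was at 9.34, 7.12 and 10.1 CPM in (+/−) animals and at 5.03, 5.43 and 9.69 CPM in (+/+) animals. Animal 513 lay with the (+/−) animals there, and *Diaph3* had a log2 fold change of 0.40 with all animals (standard error 0.27, adjusted p = 0.37 from edgeR) and of 0.75 without animal 513.

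Of the chromosome structure genes, the proliferation markers *Mki67* and *Top2a* separated the genotypes and the condensin genes did not. *Mki67*, which encodes Ki-67, the coat of mitotic chromosomes, was at 11.4, 6.71 and 7.50 CPM in (+/−) animals and at 4.69, 4.27 and 6.67 CPM in (+/+) animals. The margin between animals 506 and 513 was small (log2 fold change 0.71, standard error 0.25, adjusted p = 0.19 from edgeR), and without animal 505 the value was 0.45. *Top2a*, the topoisomerase that untangles sister chromatids, was at 24.1, 17.2 and 18.02 CPM in (+/−) animals and at 14.3, 12.04 and 15.6 CPM in (+/+) animals (log2 fold change 0.50, standard error 0.16, adjusted p = 0.17 from edgeR). *Smc4*, an ATPase of condensin and the most abundant member per length, was at 30.7, 24.1 and 24.4 CPM in (+/−) animals and at 24.8, 23.4 and 26.2 CPM in (+/+) animals. Only animal 505 stood above the others in *Smc4* (log2 fold change 0.09, standard error 0.12, adjusted p = 0.64 from edgeR). *Smc2*, *Ncapg* and *Ncaph* had log2 fold changes of 0.05, 0.09 and 0.40, all with overlap, and *Ncapg* overlaps *Lcorl* on the opposite strand.

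Other lists of cell cycle genes gave counts to be read against the 13.2% of all tested genes that were higher and the 9.11% that were lower at an unadjusted p under 0.05. Of 54 tested genes in a further list of mitosis and G2/M genes, 6 were higher and 5 lower at an unadjusted p under 0.05 from edgeR, which is near those shares (11.1% higher), and the median log2 fold change was −0.03. There 0 genes passed the adjusted threshold of edgeR. DESeq2 called 2 higher and 2 lower, against 7.54% and 4.3% of all tested genes. The smallest p-values there belonged to *Cdc25b*, a phosphatase of CDK1 that neural progenitors use, with 8.99, 9.78 and 8.97 CPM in (+/−) animals and 17.6, 16.9 and 11.7 CPM in (+/+) animals (log2 fold change −0.74, adjusted p = 0.17 from edgeR, and 0.0063 from DESeq2), and to *Cenpn*, a centromere protein (log2 fold change 0.83). Of 44 genes of DNA replication and S phase, 9 were higher (20.5%) and 3 lower with a median of 0.20. *Uhrf1*, which maintains DNA methylation behind the fork, and *Pola1*, a subunit of DNA polymerase alpha, had log2 fold changes of 0.58 and 0.49. Of 9 genes of G1 cyclins, kinases and Myc, 1 was higher (*Cdk6*, 0.66) and 2 were lower (*Mycn*, and *Myc* with −0.42). Among 18 brakes of the cycle 2 were higher, 11.1% and thus near the share of all genes, and 3 lower (*Gas1* 0.55 and *Ccng2* −0.53 had the smallest p-values), and among 7 subunits of MuvB and DREAM 2 were higher and 0 lower, *Tfdp2* with 0.33 and *Tfdp1* with 0.20. Within S phase the G1 to S cyclins ran the other way, as *Ccne1* and *Ccne2* had log2 fold changes of −0.55 and −0.68.

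**Figure D4:**
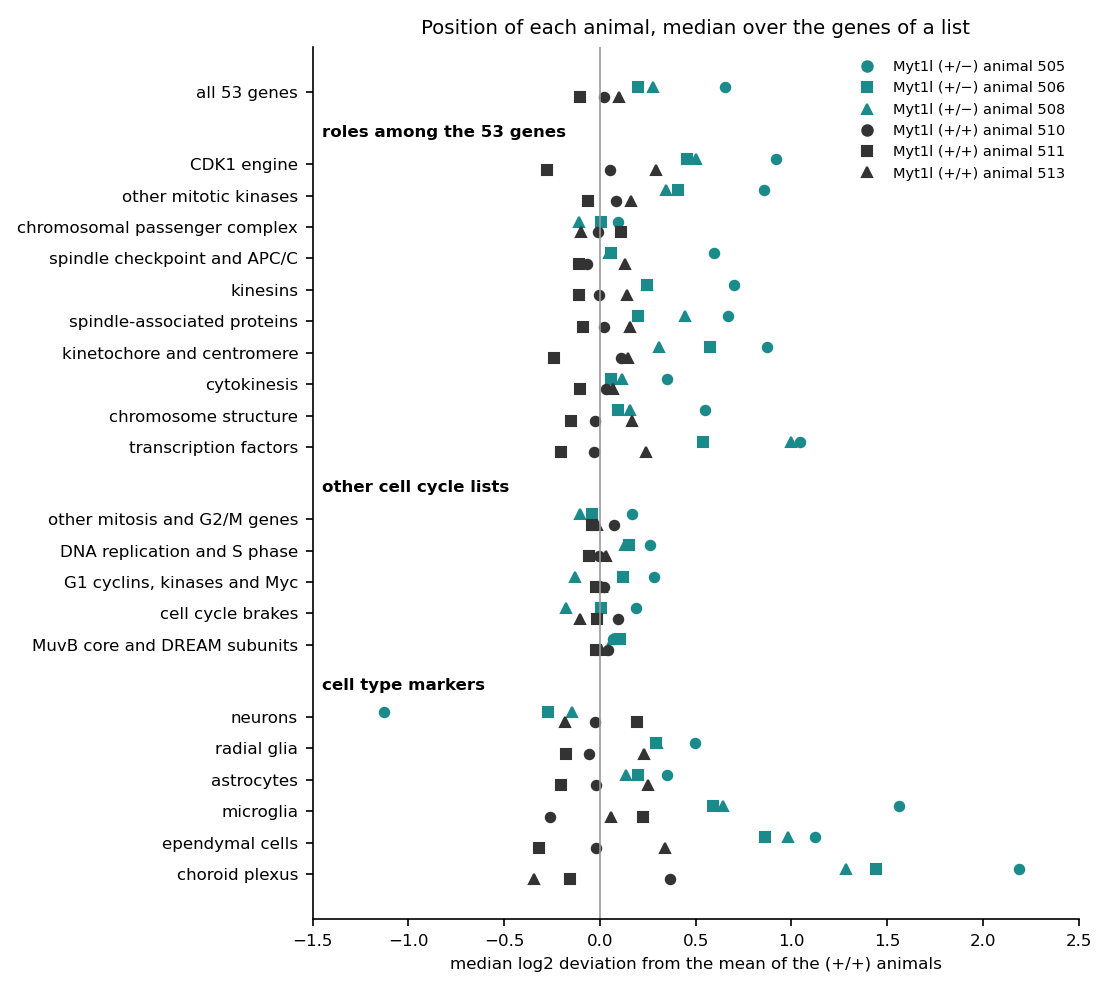
Position of each animal, as the median over the genes of a list of the log2 deviation from the mean of the (+/+) animals, (+/−) in teal above (+/+) in black. Over all 53 genes animal 505 lies at 0.65 and animals 506 and 508 at 0.20 and 0.27, against −0.10 to 0.10 in (+/+) animals.

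Several marker lists of other cell types differed between the genotypes in these cultures, and their counts are again to be read against 13.2% of all genes higher and 9.11% lower. Of 13 tested microglia markers 10 were higher at an unadjusted p under 0.05 from edgeR and 0 lower. Their summed level was 146 to 284 CPM in (+/−) animals and 91.5 to 128 CPM in (+/+) animals, and *Siglech* was at 0 in every animal. All 8 ependymal markers were higher, with summed levels of 1081 to 1267 CPM in (+/−) animals and 587 to 820 CPM in (+/+) animals. Of 8 choroid plexus markers 6 were higher, with 383 to 1420 CPM in (+/−) animals and 83.8 to 249.8 CPM in (+/+) animals. Of 10 radial glia markers 5 were higher, with 1638 to 2049 CPM in (+/−) animals and 1228 to 1675 CPM in (+/+) animals. Of 12 astrocyte markers 2 were higher (16.7%, near the share of all genes), with 13235 to 14634 CPM in (+/−) animals and 9476 to 14299 CPM in (+/+) animals. Of 9 meningeal fibroblast markers 2 were higher, with 422 to 1596 CPM in (+/−) animals and 194 to 844 CPM in (+/+) animals. The radial glia, astrocyte and fibroblast sums overlapped between genotypes. The intermediate progenitor markers *Neurog2* and *Insm1* had log2 fold changes of −0.54 and −0.31, each with overlap and an unadjusted p above 0.05. Of 11 neuronal markers 3 were lower and 0 higher, with 2324 to 4366 CPM in (+/−) animals and 4453 to 5249 CPM in (+/+) animals. Animal 505, the highest in most mitosis genes, was also the highest of all animals in the microglia, ependymal, choroid plexus, radial glia and astrocyte sums and the lowest in the neuronal sum. The part of these cell types in the result was not tested.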

How the data were processed

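RNA of cultures from 6 animals (3 (+/−), 3 (+/+), 12 libraries) was analysed. Raw counts of each gene in each library were deposited by the authors, who made them from strand-marked (dUTP) paired-end libraries mapped to mm10 with STAR (the counting tool is not given in the sources). They also deposited normalised counts and a table of fold changes and p-values from their own comparison, and neither was used.

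The pair of libraries of each animal was summed (chi-square per degree of freedom over genes 1.26 to 1.32 within a pair, against 7.98 to 113 between animals). In R 4.3.3, edgeR 4.0.16 was used with its low-count filter by genotype, TMM scaling, the quasi-likelihood test and Benjamini-Hochberg adjustment over 18264 genes, at the threshold of 0.1 that the methods used. The methods' covariate of genetic sex was an alternative, since the labels give all animals as male. DESeq2 1.42.0 and limma 3.58.1 (voom) were alternatives, as were other scalings and filters, either library alone, and each animal left out. Scripts were tested on simulated data. CPM are relative to the TMM-scaled library size, and RPKM divide them by the exon length in the deposited table. Counts are part of what limits precision: the 53 genes had 10203 to 16240 counts per animal. Library numbers did not pair the animals: deviations of libraries with the same number correlated at −0.026 to 0.037.

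The 53 genes and all lists were chosen with earlier results of these data known. In each role the 2 genes with the highest mean CPM and the gene with the smallest p were given in full, with *Mki67*, *Top2a*, *Cdk1*, *Kif11*, *Foxm1*, *Mybl2* and *Diaph3*; in each other cell cycle list, the 2 genes with the smallest p. Marker lists are given as sums, except that of intermediate progenitors, part of which is not reported here. Further genes given with 1 value, and the printed promoters, were chosen after their values were seen. Promoters were taken from RefSeq (GRCm38.p6). No entry was used for *Cdc25c*, *Dlgap5*, *Kif20a*, *Foxm1*, *Pbk*, *Aurkb*, *Incenp*, *Tpx2*, *Ccna2* and *Smc4*.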

Additional observations from a re-analysis of the deposited data

How the results depend on the processing

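No alternative made any of the 53 genes lower at an adjusted p under 0.1 or at an unadjusted p under 0.05. The count of genes higher at an adjusted p under 0.1, 0 from edgeR, was 14 with DESeq2 (26.4% of members, against 7.54% of all genes), 0 with DESeq2 and genetic sex (against 1.23%), 8 without a low-count filter (15.1%, against 3.16%) and 8 with 12 libraries and the animal as a random effect (15.1%, close to the 12.4% of all genes), and it was 0 to 14 with an animal left out, 14 without animal 513 (26.4%, against 12.3%). The count of genes higher at an unadjusted p under 0.05, 22 from edgeR, stood against 13.2% of all tested genes. It was 9 with genetic sex in edgeR (against 6.92%), 12 with it in DESeq2 (7.16%) and 13 with 12 libraries (15.8%). With an animal left out it was 9 to 22, against 6.70% to 18.1% of all genes. It was 12 without animal 505 (8.32%), 13 without 510 (6.70%) and 9 without 511 (7.02%). With a replicate block on the library number, the 12 libraries gave 8 genes at the adjusted threshold (15.1%, against 11.3%), with *Ccnb1* in place of *Cdk1*. At the unadjusted threshold they gave 12, against 15.3% of all genes. *Cenpf*, *Hmmr*, *Kif11*, *Mki67*, *Mybl2* and *Nuf2* were called by each of the 5 alternatives that called any member. The members' median log2 fold change was 0.22 to 0.50 with an animal left out, lowest without animal 505. Genes with every (+/−) animal below every (+/+) animal numbered 1 with library 2 alone and 0 to 3 with an animal left out. With all animals and both libraries this number was 0, against 13.5% of all tested genes. The share of all genes was not determined for library 2 alone or with an animal left out, so those counts show no excess of such genes. With an animal left out the median was −0.11 to 0.036 for the other mitosis and G2/M genes (above 0 without 508 or 510), 0.14 to 0.23 for S phase genes and 0.063 to 0.20 for G1 genes. G1 genes had a median of 0.064 with genetic sex in edgeR and 0.060 in DESeq2, and MuvB and DREAM subunits 0.15 with library 2 alone. Signs turned in genes near 0. With library sizes only, *Cdca8* was at 0.0031, *Kif18a* at 0.026 and *Mad2l1* at 0.031. With a stricter filter *Kif18a* was at 0.0038 and *Mad2l1* at 0.0084. With genetic sex *Cdca8* was at 0.033 in edgeR and 0.028 in DESeq2. *Spc25* was at 0.11 with library 1 alone, *Cdca8* at 0.046 and *Mad2l1* at 0.14 with library 2 alone, and *Mad2l1* at 0.0026 with 12 libraries. With an animal left out *Cdca8* was at −0.13 to 0.032, *Kif18a* at −0.10 to 0.12, *Mad2l1* at −0.082 to 0.056, *Spc25* at −0.19 to 0.062 and *Smc4* at −0.033 to 0.14. The cause of these changes was not tested. Of 504 values of single genes under an alternative, 438 kept direction and side of the threshold, 48 passed the threshold only under the alternative and 18 turned sign. The members lay at 0.740 to 25.6 CPM, and the stricter filter kept 51 of the 53. Low counts may limit what such genes can show, which was not tested.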
